A study of Mus musculus with 6 samples.

Results

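The genes described here belong to glycolysis, the conversion of glucose to pyruvate and lactate, and to the response of cells to low oxygen, which induces many of the same genes. A list of 33 genes was followed in macrophages that had an antibody against the receptor CSF1R or a control IgG, and 29 of them were measured among 22180 genes in all. Members were taken by gene symbol, and each was read from the probe set annotated to that symbol alone with the highest mean over the 6 arrays. Of the other 4, Aldoa and Ankrd37 had only a probe set shared with a second symbol, and Gpi1 and Eno1 matched no probe set by symbol.

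The macrophages came from the bone marrow of 3 mice of the strain C57BL/KaLwRij and were grown with M-CSF, the ligand of CSF1R, for 7 days. All cultures then held 5TGM1-luc cells, a mouse myeloma line that carries luciferase, from an overnight coculture on. A mouse CSF1R antibody at 0.5 nM or a control IgG, whose dose is not stated apart, was given for 3 days, and 4 washes to remove myeloma cells preceded the extraction of total RNA. Each group had 3 Mouse Gene 2.0 ST arrays. The labels tie no array to a mouse, so the p-values reflect how much these samples vary, possibly for technical reasons, and the number of arrays limits the precision. No oxygen level, glucose level or count of cells is given in the labels.

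In glycolysis, hexokinase traps glucose in the cell, phosphofructokinase commits it to breakdown, and the later enzymes harvest ATP before lactate dehydrogenase reduces pyruvate to lactate, which leaves through monocarboxylate transporters. The transcription factors HIF-1 and HIF-2 are pairs of an alpha subunit, HIF-1 alpha (Hif1a) or HIF-2 alpha (Epas1), with ARNT. When oxygen is ample, prolyl hydroxylases (Egln genes) mark the alpha subunits for destruction through the VHL ubiquitin ligase. In macrophages HIF-1 alpha also accumulates after inflammatory stimuli, and activated macrophages are known for a high rate of glycolysis. The alpha subunits are controlled mainly as proteins, which arrays do not measure.

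Of the 29 genes, 13 were higher and 3 were lower with the antibody, and 13 did not pass the test (limma, Benjamini-Hochberg adjusted p under 0.05 over all genes). Ndrg1, Slc16a3, Aldoc, Egln3, Pfkfb4, Hk3 and Epas1 rose at least 2-fold. The bulk enzymes of the pathway, from Tpi1 and Gapdh through Pgk1, Pgam1 and Pkm to Ldha, did not pass. Among all genes tested, 28.5% passed in either direction, 12.5% were higher and 16% were lower. Among the 12873 genes whose mean signal lay above 4.92, a guide to background (1390 genes of olfactory or vomeronasal receptors, 95th percentile), these shares were 46.5%, 20.2% and 26.3%. All 29 genes lay above that guide. Their share passing in either direction, 55.2%, was thus near that of the expressed genes, while 44.8% were higher and 10.3% were lower. At least 2-fold rises were seen in 24.1% of the 29, against 2.89% of all genes and 4.93% of those above the guide. The 3 antibody and 3 IgG arrays did not overlap for 19 of the 29 genes (65.5%), against 39.3% of all genes and 60.2% of those above the guide. Their median difference was 0.12 on the log2 scale, beside -0.022 over all genes. The members were chosen with earlier results of these arrays known, so these shares carry no test.

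**Figure D1:**
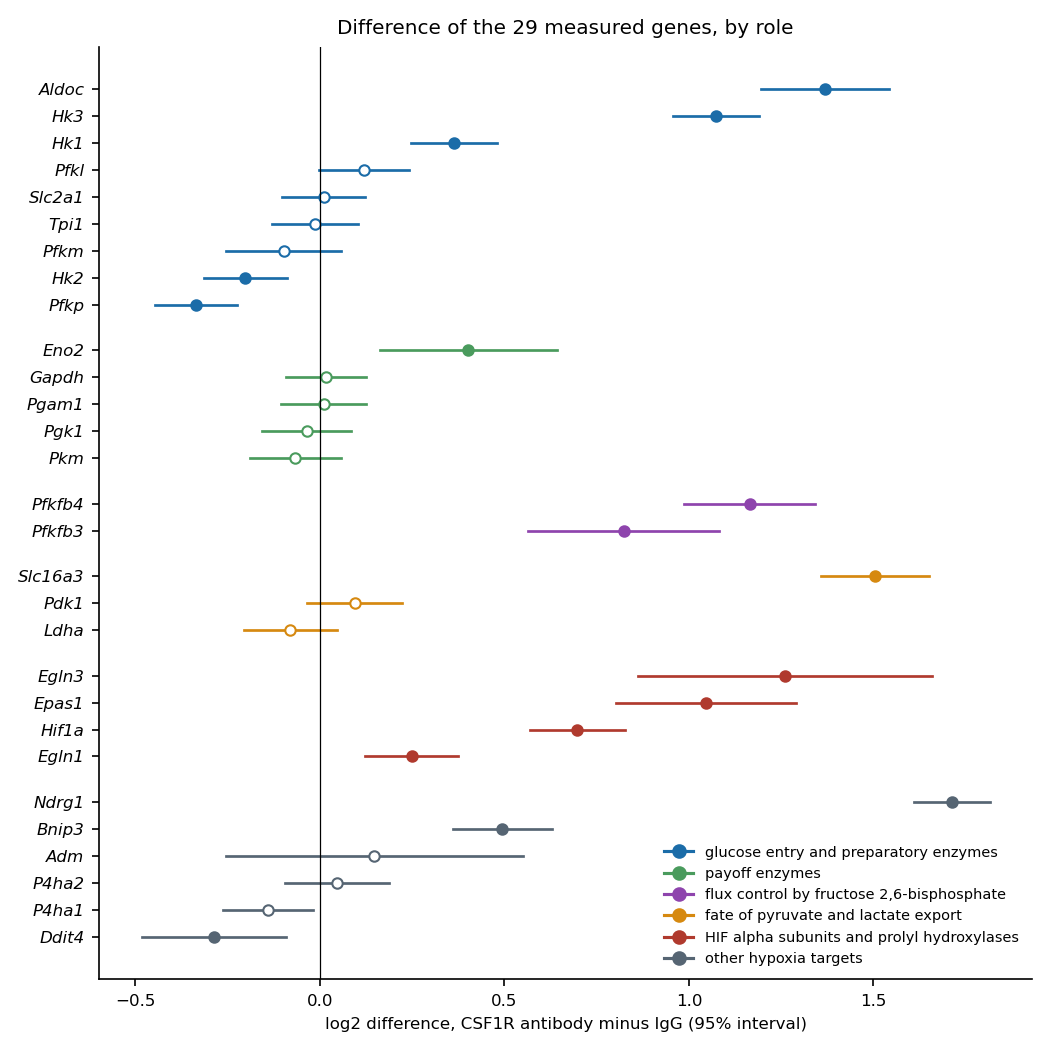
Log2 difference (CSF1R antibody minus IgG) of each of the 29 measured genes, with the 95% interval from limma as a line, grouped by role; filled points passed the test at adjusted p under 0.05 and open points did not. Differences run from -0.34 (Pfkp) to 1.71 (Ndrg1), and 4 of the 5 payoff enzymes are open points close to 0.

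Markers of other cell types and of growth moved on the same arrays. Of 15 macrophage markers measured, 14 rose and 0 fell, with a median difference of 1.12, and their mean level ran from 10.34 to 10.38 on the antibody arrays and from 9.31 to 9.37 on the IgG arrays. Csf1r, the transcript of the antibody's target, was among them, with a rise of 1.12 (SE 0.051; adjusted p = 2e-05), which is no check of the labels because the antibody acts on the receptor itself. Of 13 plasma cell and B lineage markers, 1 rose and 8 fell (median -0.30; mean level 8.90 to 8.96 against 9.17 to 9.21), and 11 of the 13 lay above the guide on arrays made after the washes, with Ighm at 12.74 and 12.88. The 17 cell cycle genes all fell (median -0.55; 8.99 to 9.08 against 9.56 to 9.59), and of 12 stromal and smooth muscle markers 1 rose and 7 fell (median -0.38; 5.81 to 5.87 against 6.24 to 6.33). Of 9 neutrophil markers 8 lay below the guide and 0 passed. RNA of all cells in a culture was measured together, so fewer cells of a type and less RNA per cell cannot be told apart. The part of these marker changes in the results on glycolysis and hypoxia genes was not tested. Of the 29 genes, 5 rose by more than the macrophage marker median, namely Ndrg1, Slc16a3, Aldoc, Egln3 and Pfkfb4. The macrophage markers themselves ran from 0.015 to 1.74, and the largest rise of the 29 genes was 1.71 (Ndrg1).

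Promoters of the genes were searched for the core of the hypoxia response element, the site that HIF binds, because genes that rose most and genes that did not pass both include textbook HIF targets. The search used windows from 250 bases before to 50 after each start site (RefSeq, GRCm38.p6) and the letters ACGTG and GCGTG on both strands; a CACGTG run, which other factors also bind, counts as a match on each strand. Windows were found for 27 of the 29 genes, and Epas1 and Ndrg1 had none. Of these 27 genes 25 had a match, as did 10 of the 11 with a window among those that rose and 12 of the 13 that did not pass. A match was held by 43.8% of all RefSeq windows, by 50.1% of the windows of genes tested here and by 83.3% of the windows of the listed genes. Counted by gene, these shares were 46.7%, 53.1% and 92.6%. The median number of CG dinucleotides in a window was 7, 13 and 20 in the same order, and both motifs contain CG.

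The 250 bases before the start site are shown for Bnip3, Aldoc and Egln3, which rose, and for Pgk1, a textbook HIF-1 target that did not pass. They are 4 of the 12 stretches that overlap no annotated gene, picked with their values known to show genes with large and small differences. Matches are in capitals, and each reads 5′ to 3′ on the strand of its gene. Bnip3 lies at chr7:138909507-138909756 (minus strand), Aldoc at chr11:78322823-78323072 (plus), Egln3 at chr12:54203875-54204124 (minus) and Pgk1 at chrX:106186850-106187099 (plus).
Bnip3: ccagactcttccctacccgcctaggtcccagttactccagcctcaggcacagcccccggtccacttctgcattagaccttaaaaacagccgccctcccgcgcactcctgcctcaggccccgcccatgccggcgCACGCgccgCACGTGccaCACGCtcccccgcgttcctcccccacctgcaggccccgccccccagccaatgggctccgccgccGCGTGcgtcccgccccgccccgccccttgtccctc
Aldoc: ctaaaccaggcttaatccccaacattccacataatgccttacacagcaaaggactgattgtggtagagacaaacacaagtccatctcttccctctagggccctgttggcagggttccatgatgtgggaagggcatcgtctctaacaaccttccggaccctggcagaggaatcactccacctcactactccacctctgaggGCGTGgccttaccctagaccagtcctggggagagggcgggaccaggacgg
Egln3: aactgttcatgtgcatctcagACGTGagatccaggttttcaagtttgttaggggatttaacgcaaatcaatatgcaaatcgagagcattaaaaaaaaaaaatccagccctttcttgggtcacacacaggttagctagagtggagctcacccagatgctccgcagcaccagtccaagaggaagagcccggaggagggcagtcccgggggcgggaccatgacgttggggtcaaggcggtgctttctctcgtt
Pgk1: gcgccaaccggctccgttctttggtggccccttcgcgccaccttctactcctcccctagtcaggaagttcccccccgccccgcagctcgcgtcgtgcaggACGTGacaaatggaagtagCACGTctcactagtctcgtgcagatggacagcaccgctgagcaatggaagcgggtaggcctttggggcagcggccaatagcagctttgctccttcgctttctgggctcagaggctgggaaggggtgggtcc
Bnip3 has 5 matches in this stretch, Pgk1 has 2, and Aldoc and Egln3 have 1 each. In the full windows of 300 bases, the 50 after the start site included, Aldoc has 3 matches and the other 3 genes have the same numbers as before.

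Short stretches of 25 bases around a match compare 2 more genes that rose, Slc16a3 and Pfkfb4, with 2 that did not pass, Slc2a1 and Ldha.
Slc16a3: ggcagcggtgACGTGcgcgggggac
Pfkfb4: gacggatgggGCGTGcttagtccaa
Slc2a1: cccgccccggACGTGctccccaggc
Ldha: tgggttcccgCACGTccgctgggct
The match starts at position -27 from the start site in Slc16a3 (chr11:120949030-120949054, plus strand), at -117 in Pfkfb4 (chr9:108991775-108991799, plus), at -36 in Slc2a1 (chr4:119108699-119108723, plus) and, on the opposite strand of the gene and so printed as CACGT, at -34 in Ldha (chr7:46845760-46845784, plus). A single match is printed for each gene. In the windows of 300 bases that hold them, Ldha has 7 matches, Slc16a3 and Slc2a1 have 2 each and Pfkfb4 has 1. A second Ldha window has 2. A match is a run of letters, and binding was not measured here. Matches were present in genes that rose, in genes that did not pass and in all 3 that fell.

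Both HIF alpha subunit genes of the list and its 2 prolyl hydroxylase genes, Egln1 and Egln3, rose. The median difference of these 4 was 0.87, while 0 of 10 other genes of oxygen sensing, given further on, passed the test as higher. Hif1a stood at 9.19, 9.23 and 9.34 on the antibody arrays and at 8.55, 8.56 and 8.56 on the IgG arrays, a rise of 0.70 (SE 0.054; 1.62-fold; adjusted p = 0.00017). Every antibody array lay above every IgG array, and the IgG arrays were close to each other. Epas1 stood at 7.08, 6.99 and 7.26 against 5.89, 6.11 and 6.19, a rise of 1.05 (SE 0.10; 2.06-fold; adjusted p = 0.00047), again with no overlap. A second probe set annotated to Hif1a alone, of lower signal, showed a rise of 0.54, so both probe sets of that kind moved the same way. A dim probe set shared by Hif1a and S100a11-ps differed by 0.055 and was not used.

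Egln3, which encodes the hydroxylase PHD3 and is itself a HIF target, was at 6.70, 6.91 and 7.28 with the antibody and at 5.87, 5.48 and 5.76 with IgG. The rise was 1.26 (SE 0.17; 2.40-fold; adjusted p = 0.0017), and the spread within each group was wider than for Hif1a. Egln1, which encodes PHD2, the main oxygen sensor of most cells, rose by 0.25 (SE 0.053; adjusted p = 0.013), from 9.12, 9.15 and 9.12 to 9.31, 9.36 and 9.45. Within the arrays the log2 ratio of Egln3 to Egln1 went from between -3.67 and -3.25 to between -2.61 and -2.18, and that of Epas1 to Hif1a from between -2.66 and -2.37 to between -2.24 and -2.08. In both pairs the first gene rose more than the second on every antibody array relative to every IgG array (two-sided exact permutation test, p = 0.1, the smallest that 3 and 3 arrays allow).

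Of 10 other genes of the oxygen-sensing machinery, 0 were higher and 3 were lower: Cul2 (-0.34, SE 0.044) and Eloc (-0.29, SE 0.053), which encode parts of the VHL ubiquitin ligase, and Hif1an (-0.26, SE 0.065), which encodes the asparagine hydroxylase that limits HIF activity. Their adjusted p-values were 0.0017, 0.0063 and 0.026. Cul2 had the same value, 9.46, on all 3 antibody arrays, which leaves no spread in that group. Between pairs of arrays, 3.6% to 6.9% of probe sets had identical values, and the cause was not tested. The median of the 10 was -0.073. Among these 10 genes, the other parts of that ligase, Vhl and Elob, did not fall. Vhl differed by 0.27 (SE 0.10; adjusted p = 0.11) and did not pass, although every antibody array lay above every IgG array. Elob differed by 0.0061 and did not pass. Egln2, the gene of the remaining prolyl hydroxylase of this family, differed by -0.012 and did not pass. Hif1an lost its call when the arrays were centred on their medians (adjusted p = 0.078) or scaled with cyclic loess (adjusted p = 0.11), and when any single array other than antibody replicate 3 was left out (adjusted p from 0.059 to 0.082).

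**Figure D2:**
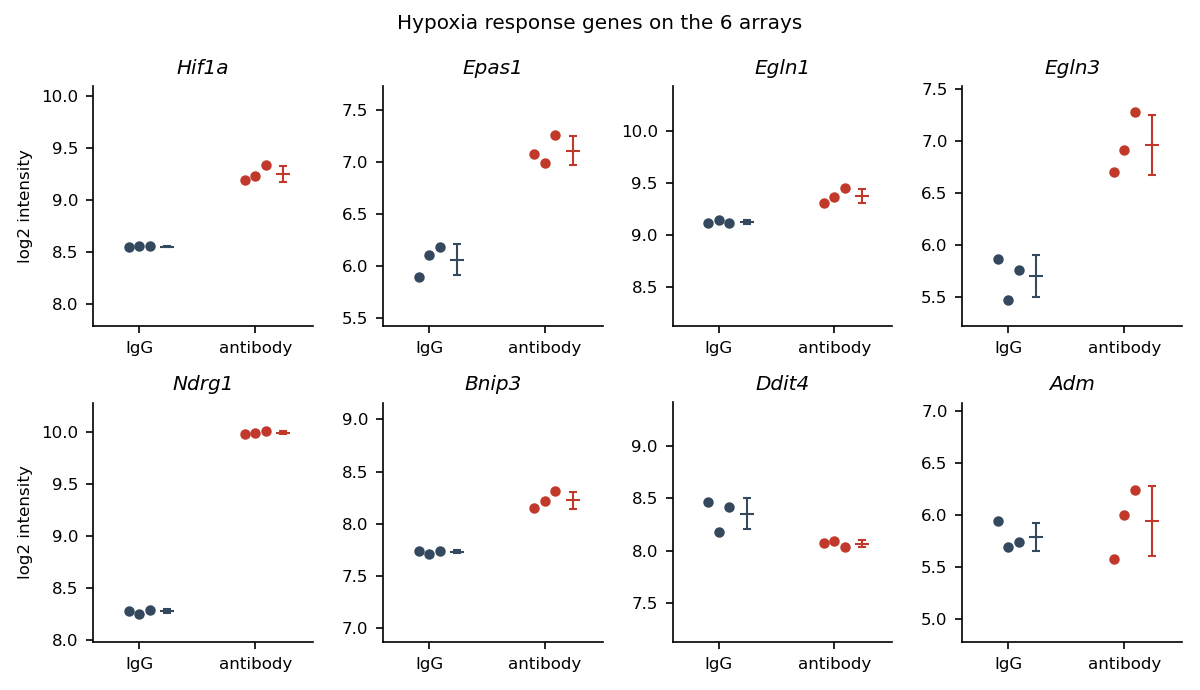
Log2 intensity (y axis, each panel spanning the same range of log2 units) of 8 hypoxia response genes on the 3 IgG and 3 antibody arrays; points are single arrays, in the order of replicate number, and bars to their right are mean ± SD (n = 3). Ndrg1, Hif1a, Epas1, Egln1, Egln3 and Bnip3 lie higher on all antibody arrays, Ddit4 lies lower, and Adm overlaps.

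Known HIF targets outside glycolysis differed among themselves. Of the 6 measured members of this group 2 rose, 1 fell and 3 did not pass, with a median of 0.097. Ndrg1, a stress-responsive gene strongly induced by low oxygen in many cells, was at 9.98, 9.99 and 10 with the antibody and at 8.28, 8.26 and 8.29 with IgG. This was the largest rise of the 29 genes, 1.71 (SE 0.042; 3.28-fold; adjusted p = 8.1e-06), and a second Ndrg1 probe set of much lower signal rose by 1.13. Bnip3, whose product marks mitochondria for removal, rose by 0.49 (SE 0.056; adjusted p = 0.00088), from 7.74, 7.71 and 7.74 to 8.15, 8.22 and 8.31. The groups did not overlap for either gene. The promoter stretch of Bnip3 is among those printed.

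Ddit4, which encodes the mTORC1 inhibitor REDD1, moved the other way. It stood at 8.07, 8.09 and 8.03 with the antibody and at 8.46, 8.18 and 8.42 with IgG, a fall of 0.29 (SE 0.081; adjusted p = 0.040). IgG replicate 2 lay closest to the antibody arrays, and the call was lost when any single array other than that one was left out (adjusted p from 0.091 to 0.13), with arrays centred on their medians (adjusted p = 0.078), with cyclic loess (adjusted p = 0.19) and with the replicate block (adjusted p = 0.069). Adm, the gene of the vasodilator adrenomedullin, overlapped between groups at 5.58, 6.0 and 6.24 against 5.95, 5.70 and 5.74. Its interval, -0.26 to 0.55, leaves a change of either sign possible. P4ha1 and P4ha2 encode alpha subunits of the prolyl hydroxylase that stabilises collagen. P4ha1 was at 10.33, 10.34 and 10.42 against 10.49, 10.55 and 10.47, a difference of -0.14 that did not pass (adjusted p = 0.094; 0.025 with an intensity trend in the variance model), and P4ha2 differed by 0.047 (adjusted p = 0.64).

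A further list of 30 measured HIF targets, written from textbook knowledge, held 11 genes that rose and 5 that fell, with a median of -0.015. Plod1, a lysyl hydroxylase gene of collagen cross-linking, rose by 1.02 (SE 0.058), the growth factor gene Pdgfb by 0.92 (SE 0.052), and Plin2, whose product coats lipid droplets, by 0.89 (SE 0.044). Lox, for the enzyme that cross-links collagen, fell by 0.73 (SE 0.090), from 8.35, 8.40 and 8.42 to 7.53, 7.59 and 7.86. Of this list 36.7% were higher and 16.7% lower, against 20.2% and 26.3% of genes above the background guide. Its median was close to that of all genes. This list too was chosen with earlier results of these arrays known, so its shares carry no test.

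Glucose entry and the preparatory steps, which spend ATP, changed by paralog. Of 9 genes measured here 3 rose, 2 fell and 4 did not pass, with a median of 0.010. Slc2a1, the gene of the main glucose transporter GLUT1, was at 10.99, 10.94 and 11.01 with the antibody and at 10.94, 10.98 and 10.99 with IgG, so the groups overlapped fully. The difference was 0.010 with an interval of -0.10 to 0.12. Of the other glucose transporter genes, Slc2a6 (GLUT6), found in macrophages, rose by 1.64 (SE 0.084; 3.12-fold; adjusted p = 2.9e-05), from 6.52, 6.26 and 6.31 to 8.04, 7.91 and 8.07. Smaller rises, with adjusted p close to the threshold, were seen for Slc2a8 (0.36, SE 0.10; adjusted p = 0.041) and Slc2a3 (0.31, SE 0.092; adjusted p = 0.046).

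The 3 hexokinase genes went in different directions. Hk3, the hexokinase of myeloid cells, stood at 9.12, 9.17 and 9.17 with the antibody and at 8.05, 8.07 and 8.14 with IgG, a rise of 1.07 (SE 0.048; 2.10-fold; adjusted p = 1.9e-05). Hk1, the widely expressed form, rose by 0.36 (SE 0.048; adjusted p = 0.0017), from 7.13, 7.17 and 7.19 to 7.55, 7.56 and 7.48. A probe set shared by Hk1os and Hk1 differed by -0.0026 and was not used. Hk2, the form induced by growth signals and by HIF-1, was lower, at 8.43, 8.43 and 8.52 against 8.66, 8.67 and 8.67, a fall of 0.20 (SE 0.047; adjusted p = 0.018). That call was lost with median centring (adjusted p = 0.081), with cyclic loess (adjusted p = 0.20), with the replicate number as a block (adjusted p = 0.060), and without antibody replicate 1 (0.060), antibody replicate 2 (0.062) or IgG replicate 3 (0.051). The log2 ratio of Hk3 to Hk2 within arrays, which a shift of a whole array by a constant leaves as it is, went from between -0.61 and -0.54 with IgG to between 0.66 and 0.74 with the antibody. The shift in that ratio was 1.28, and the Hk1 to Hk2 ratio shifted by 0.57 (exact permutation p = 0.1 for each).

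Phosphofructokinase and its regulators also split. Pfkp, the platelet form of phosphofructokinase, fell by 0.34 (SE 0.046; adjusted p = 0.0020), from 11.33, 11.36 and 11.34 to 11, 10.97 and 11.05, with no overlap. Pfkl, the liver form, was at 9.03, 9.14 and 9.12 against 9.01, 8.95 and 8.97 and did not pass (0.12; adjusted p = 0.14), although it did with cyclic loess (0.24; adjusted p = 0.012). Pfkm, the muscle form, did not pass either (-0.098; adjusted p = 0.34). The log2 ratio of Pfkl to Pfkp rose by 0.46, from between -2.41 and -2.32 to between -1.97 and -1.83.

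Pfkfb3 and Pfkfb4 encode the bifunctional enzymes that make and break down fructose bisphosphate of the regulatory kind, the most potent activator of phosphofructokinase, and both are HIF targets. Both rose. Pfkfb4 went from 6.06, 6.32 and 6.16 to 7.31, 7.37 and 7.35, a rise of 1.16 (SE 0.074; 2.24-fold; adjusted p = 7.2e-05), and Pfkfb3 from 5.93, 6.24 and 6.13 to 6.83, 7.10 and 6.84, a rise of 0.82 (SE 0.11; 1.77-fold; adjusted p = 0.0016). The antibody arrays lay above the IgG arrays for both genes. Pfkfb2, a paralog outside the list, was at 7.01 ± 0.05 against 6.84 ± 0.10 (SD, n = 3) and did not pass (adjusted p = 0.11). Tigar, whose product breaks down the same regulator, fell by 0.31 (SE 0.048; adjusted p = 0.0034).

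Aldoc, the aldolase of brain, rose by 1.37 (SE 0.072; 2.58-fold; adjusted p = 3.3e-05), from 6.98, 7.15 and 7.01 to 8.46, 8.48 and 8.31. The groups were far apart relative to their spread. Aldoa, the form of most tissues, could be read only through a probe set shared with the retrogene Aldoart1, at 5.96, 6.32 and 5.90 against 5.72, 5.83 and 5.77, and was not counted. Tpi1, whose product interconverts the triose phosphates, was at 11.31, 11.33 and 11.38 against 11.31, 11.37 and 11.39, a difference of -0.014 with an interval of -0.13 to 0.10.

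**Figure D3:**
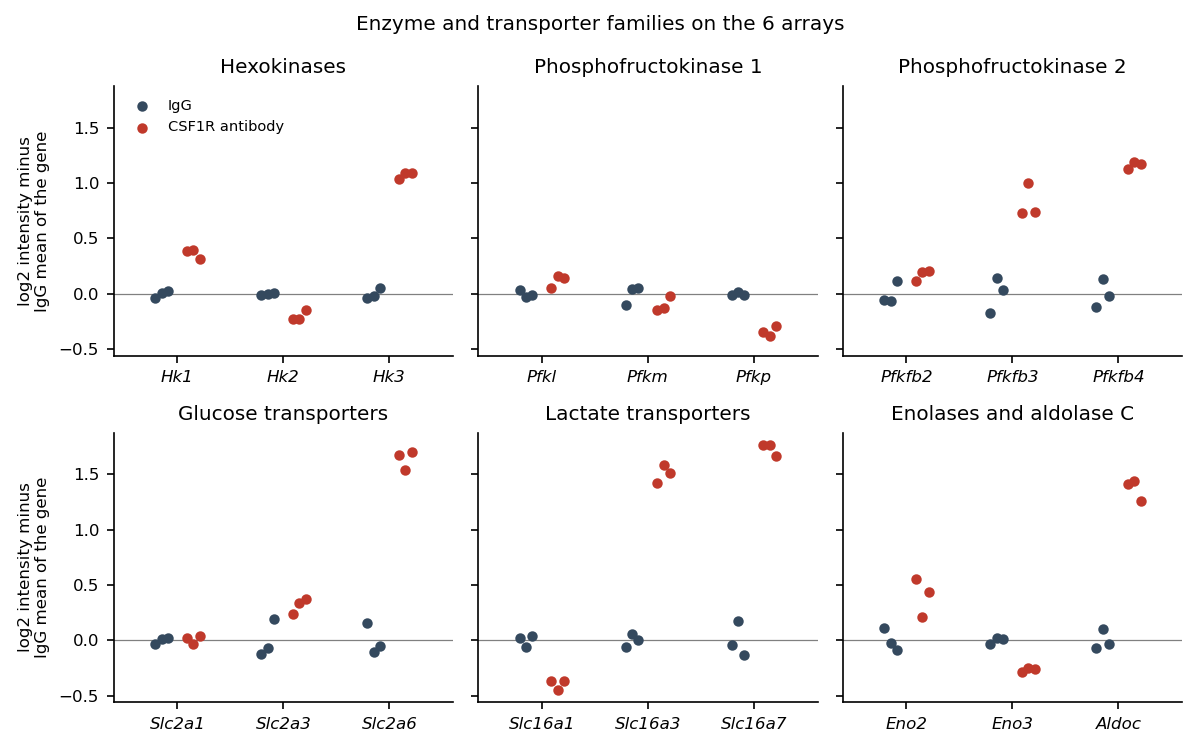
Log2 intensity of each array minus the mean of the 3 IgG arrays for that gene (y axis), in 6 families of enzymes and transporters; each point is 1 array. Hk3, Pfkfb3, Pfkfb4, Slc2a6, Slc16a3, Slc16a7 and Aldoc sit well above 0 on all antibody arrays, while Hk2, Pfkp, Slc16a1 and Eno3 sit below and Slc2a1 stays at 0.

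The payoff enzymes, which yield ATP and NADH, had the smallest share past the test among the role groups of the list. Of 5 measured, 1 rose and 0 fell, with a median of 0.010. Gapdh was at 12.90, 12.92 and 12.97 with the antibody and at 12.93, 12.90 and 12.91 with IgG, a difference of 0.017 with an interval of -0.09 to 0.13. Pgk1 differed by -0.036 (interval -0.16 to 0.08), Pgam1 by 0.010 (-0.11 to 0.13) and Pkm by -0.067 (-0.19 to 0.06). For these 4 genes and for Tpi1 and Slc2a1 the interval leaves out a change as large as 0.20 in either direction. This holds for the probe set used and the scaling of the fit reported. Dimmer probe sets annotated to the symbol alone were less precise, at 0.14 (SE 0.11) for Pgam1, 0.071 (SE 0.096) for Slc2a1 and -0.085 (SE 0.096) for Gapdh. Another Gapdh probe set differed by 0.018 (SE 0.049). Cyclic loess turned the sign for Pgk1, Pkm, Tpi1 and Ldha, and none of them passed under it. Gapdh has many processed copies in the genome, and 7 further probe sets shared by Gapdh and Gm12070 differed by -0.040 to 0.013, while a dim probe set shared with Gapdh-ps15 differed by -0.52.

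Eno2, the enolase of neurons, was the payoff gene that passed. It stood at 5.97, 5.62 and 5.85 with the antibody and at 5.52, 5.39 and 5.32 with IgG, a rise of 0.40 (SE 0.10; adjusted p = 0.024), and the call was lost without antibody replicate 1 or 3 or IgG replicate 2 or 3 (adjusted p from 0.069 to 0.089). Eno3, the muscle enolase, fell by 0.26 (SE 0.044; adjusted p = 0.0048), from 9.82, 9.88 and 9.87 to 9.57, 9.61 and 9.60. Eno2 and Eno3 thus moved in opposite directions on these arrays, and Eno1 matched no probe set by symbol.

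Among genes that decide the fate of pyruvate, Slc16a3 stood out. It encodes MCT4, the lactate exporter of highly glycolytic cells and a HIF-1 target, and went from 6.85, 6.97 and 6.92 with IgG to 8.34, 8.49 and 8.43 with the antibody. The rise was 1.5 (SE 0.061; 2.84-fold; adjusted p = 1.5e-05). Slc16a7, which encodes the related transporter MCT2, rose by 1.73 (SE 0.087; 3.31-fold; adjusted p = 2.9e-05), from 6.83, 7.05 and 6.74 to 8.64, 8.64 and 8.54. Slc16a1, which encodes MCT1, fell by 0.40 (SE 0.052; adjusted p = 0.0017), from 10.09, 10.01 and 10.11 to 9.70, 9.62 and 9.70. A probe set shared by Csnk1d and Slc16a3 differed by 0.090 and was not used.

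Ldha, the lactate dehydrogenase subunit that favours lactate, was at 8.32, 8.25 and 8.32 against 8.33, 8.44 and 8.36. The difference of -0.080 did not pass (adjusted p = 0.34), although the groups did not overlap. Pdk1, a HIF-1 target that blocks pyruvate dehydrogenase and so keeps pyruvate out of mitochondria, was at 8.55, 8.68 and 8.68 against 8.54, 8.53 and 8.55 and did not pass (0.094; adjusted p = 0.27). It did pass with cyclic loess (0.21; adjusted p = 0.021). Of its paralogs 1 fell, 1 rose and 1 did not pass. Pdk4, the form induced by fasting, fell by 1.08 (SE 0.088; adjusted p = 0.00022), from 7.36, 7.19 and 7.20 to 6.07, 6.11 and 6.33, and Pdk2 rose by 0.45 (SE 0.052; adjusted p = 0.00097). Pdk3 differed by 0.0083 (adjusted p = 0.97), and its groups overlapped.

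The genes on the mitochondrial side of pyruvate also included rises. Of 11 measured genes of pyruvate dehydrogenase and pyruvate import, 4 rose and 3 fell, with a median of -0.058. Pdp1, for the phosphatase that activates pyruvate dehydrogenase, rose by 0.88 (SE 0.086), and Mpc1, for a subunit of the mitochondrial pyruvate carrier, by 0.67 (SE 0.066). Dlat and Pdhx, for subunits of the complex itself, fell by 0.24 and 0.25. In the branches from glucose 0 of 6 pentose phosphate genes rose and 1 fell, Rpia, for ribose phosphate isomerase, by 0.74 (SE 0.047). In glycogen metabolism 3 of 7 genes rose and 2 fell. Pygl, for a glycogen phosphorylase, rose by 1.20 (SE 0.070) and Pgm2, for a phosphoglucomutase, by 1.24 (SE 0.062), while Gbe1, for the branching enzyme, fell by 0.40 (SE 0.072). Over the 20 measured glycolysis genes outside the list of 29, 4 rose and 5 fell, with a median of -0.050.

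**Figure D4:**
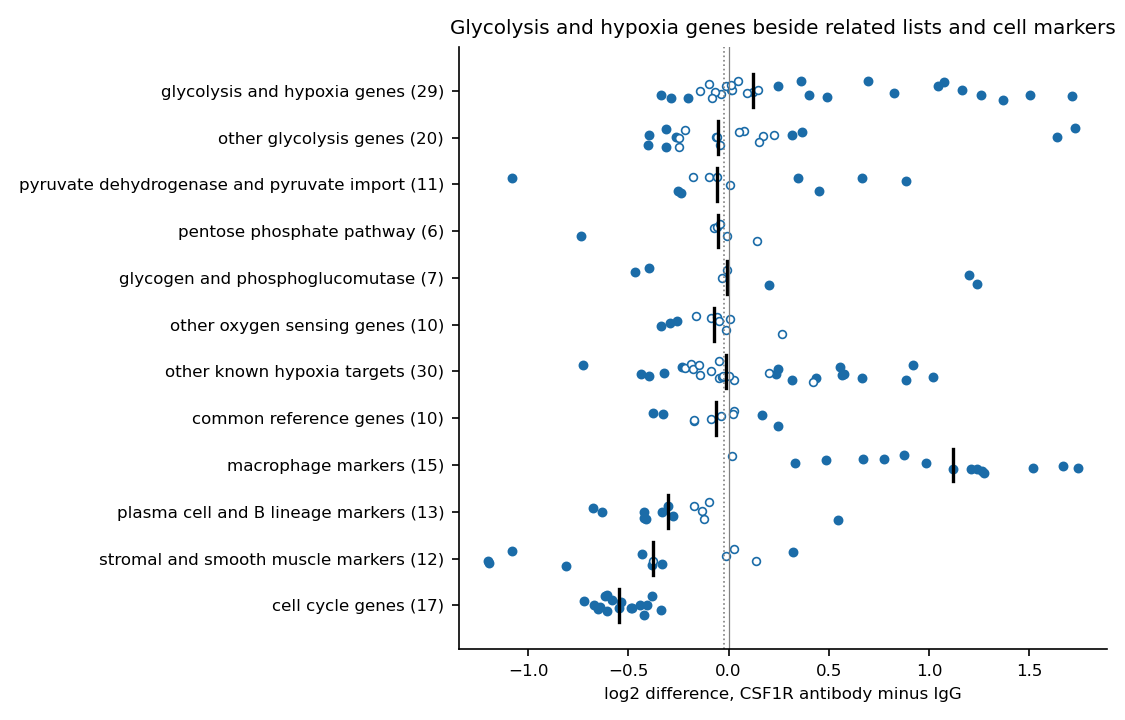
Log2 difference (antibody minus IgG, x axis) of each gene of the list followed here, of related metabolic and hypoxia lists, and of cell type and cell cycle markers, with the number of genes measured in parentheses. Filled points passed at adjusted p under 0.05, black bars are list medians, and the dotted line is the median of all genes (-0.022). The median of the glycolysis and hypoxia genes is 0.12, that of macrophage markers 1.12 and that of cell cycle genes -0.55.

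Genes often used to scale expression data gave a further comparison for Gapdh and Pgk1. Of 10 common reference genes measured, 2 rose and 2 fell. Hprt fell by 0.37 (SE 0.072; adjusted p = 0.0086) and Tbp by 0.33 (SE 0.067; adjusted p = 0.011), while Actb rose by 0.16 (SE 0.049; adjusted p = 0.048), a call lost with robust variances (adjusted p = 0.052), with the replicate block (adjusted p = 0.11) and without any single array other than IgG replicate 3 (adjusted p from 0.087 to 0.12). Gapdh and Pgk1 were not among those that passed.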

How the data were processed

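RNA of 6 macrophage cultures, 3 with a CSF1R antibody and 3 with IgG, was labelled with biotin and measured on Mouse Gene 2.0 ST arrays, per the labels' protocols. The authors deposited 1 linear-scale intensity for each probe set and array. The submitters' processing notes name RMA and limma, without versions or what each was used for. RMA usually includes quantile normalization, which would hide a shift shared by most genes. Genome build and level of probe summary: not given in the sources used here.

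Values were taken as log2. Of 41345 probe sets, 23521 had 1 symbol in the platform annotation, 1814 several and 16010 none, and those with 1 symbol gave 22180 genes, each read from its probe set with the highest mean. No filter on dim probe sets was set. The groups were compared over all 6 arrays by lmFit and eBayes (limma 3.58.1, R 4.3.3) with no covariate, Benjamini-Hochberg adjustment over all genes and a threshold of 0.05, and the test was tested on simulated data. SE is limma's moderated standard error, and intervals cover 95%. Plots were drawn with matplotlib 3.10.9 (Python 3.11.15).

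The genes of the list, the related lists and the receptor guide were chosen with earlier results of these arrays known. Any measured gene of the list and Csf1r could be named, and from each other list at most 6 with the largest change past the test, or a paralog of a listed gene. Dlat, Tigar, Vhl and Elob were named outside that rule after their values were seen. The levels of Ighm were likewise chosen after they were seen. Paralogs were compared as log2 ratios within arrays in 10 pairs with two-sided exact permutation tests over the 6 arrays. Each exact test gave p = 0.1 before and after Benjamini-Hochberg adjustment over the 10.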

Additional observations from a re-analysis of the deposited data

How the results depend on the processing

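Of the 16 genes of the list past the test, 12 kept call and direction under each of the 16 alternative fits (other variance models, array weights, scalings, signal filters, the mean of probe sets, a threshold of 0.01, the replicate block and each array left out), 4 lost the call in at least 1 (Hk2, Eno2, Egln1, Ddit4; Egln1 at the threshold of 0.01 alone) and 0 changed direction. Of the 13 not past it, 3 passed in at least 1 (Pfkl, Pdk1, P4ha1). The number higher, 13, ran from 11 to 15. The number lower, 3, ran from 1 to 4. It was 4 with an intensity trend and with the lowest 50% of genes by mean signal left out. It was 1 with arrays centred on their medians, with cyclic loess, at the threshold of 0.01 and with the replicate block. It was also 1 without antibody replicate 1, antibody replicate 2 or IgG replicate 3, so that leaving out arrays gave 1 to 3. The median of the list was 0.21 with cyclic loess and 0.072 to 0.15 with an array left out. With cyclic loess 2346 of all genes were lower (3548 in the fit reported) and 59.2% of called genes were higher in place of 43.8%. At the threshold of 0.01, 2232 genes were lower. The causes were not tested.

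Signs near 0 turned, with no call on either side, for Slc2a1 (-0.0043 without antibody replicate 3, -0.0064 without IgG replicate 1), Tpi1 (0.031 with median centring, 0.10 with cyclic loess, 0.0019 without antibody replicate 1, 0.0025 without IgG replicate 3, with a range of -0.037 to 0.0025 over arrays left out), Gapdh (-0.017 with the mean of its probe sets, -0.0037 without antibody replicate 3, up to 0.032 without antibody replicate 1), Pgk1 (0.0096 with median centring, 0.080 with cyclic loess), Pgam1 (-0.020 without IgG replicate 1), Pkm (0.045 with cyclic loess), Ldha (0.029 with cyclic loess) and Adm (-0.0021 without antibody replicate 3, up to 0.33 without antibody replicate 1). No pairing by replicate number was seen. Deviations from group means correlated at 0.031, -0.053 and 0.0030 for same-numbered arrays, and not every array correlated best with its own number. With 3 arrays per group this cannot tell whether same-numbered arrays share a mouse, which the labels do not state. With the replicate block 13 genes of the list were higher and 1 was lower, and 2569 of all genes were higher and 2980 lower. The differences of Adm and P4ha2 were smaller than their standard errors (0.17 and 0.059).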
